A study of Mus musculus with 30 samples.

Results

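The 10 genes described here encode the CIDE proteins *Cidea*, *Cideb* and *Cidec*, the perilipins *Plin2*, *Plin3*, *Plin4* and *Plin5*, and the triglyceride lipase *Pnpla2* with its inhibitor *G0s2* and its activator *Abhd5*. They were taken by name, as genes of the lipid-droplet surface, and each was found in both deposited tables, as 10 of 54429 gene symbols in the time course and as 10 of 55471 Ensembl identifiers in the genotype experiment. The study asked how the daily and age-related expression of liver lipid genes is linked to the transcription factor Egr-1, and sequenced poly(A) RNA of 30 mouse liver libraries. The time course held 18 libraries of wild-type male C57BL/6J mice aged 2, 6 and 12 months, with 1 library at each of ZT1, ZT5, ZT9, ZT13, ZT17 and ZT21 (hours after lights on in a 12-h light, 12-h dark day). The genotype experiment held 12 libraries of male mice aged 2, 6 and 12 months, WT or with a liver-specific *Egr-1* knockout (KO), each with 1 library at the time labelled highest (H) and 1 at the time labelled lowest (L). The KO mice carried floxed *Egr-1* and *Alb*-Cre, which is active in hepatocytes, so other liver cells keep the gene, and the WT mice were littermates on the same C57BL/6J background, reached by backcrossing a line of strain 129. The study states mice per group for some analyses of these transcriptomes, but each group of age, genotype and time here is 1 library, and whether it pools several mice is not stated in the sources used here. Tests below therefore compare libraries of different hours and ages, and their p-values measure the spread between these libraries.

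Lipid droplets store triglyceride inside a coat of phospholipid and protein. CIDE proteins gather where droplets touch, and Cidea and Cidec let lipid pass from a smaller droplet to a larger one, whereas Cideb in hepatocytes also serves the loading of lipid onto secreted lipoprotein. Perilipins cover the droplet and limit the access of lipases: Plin2 is the main coat protein of the liver, Plin3 joins new droplets from the cytosol, Plin4 is known from fat and muscle, and Plin5 from tissues that burn fat. Pnpla2 (also called ATGL) takes the first fatty acid from triglyceride, Abhd5 activates it, and G0s2 inhibits it. *Cidea*, *Cidec* and *Plin4* are genes of adipocytes that the lean liver uses little.

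All 6 time-course libraries at 6 months stood apart by acute-phase genes: *Saa1* was at 5246 to 22661 CPM there (counts per 1000000 reads of the TMM-scaled library total), and at 24.9 to 1541 CPM in the 12 libraries of the other ages. Within the time course this difference cannot be told apart from age, so values at 6 months there are given beside it. The 6-month libraries of the genotype experiment did not share it, with *Saa1* at 48.9 to 610 CPM beside 60.4 to 525 CPM at 2 months. In the genotype experiment *Egr1*, the targeted gene, was lower in the library labelled KO in the 6-month pairs (72.4 against 5.54 CPM at H and 24.9 against 4.92 CPM at L) and in the 12-month pair at L (54.8 against 1.53 CPM). It was at 5.83 CPM in WT and 6.11 CPM in KO at 12 months H, and at 1.45 in WT and 7.43 in KO at 2 months L, so 2 pairs went against or did not bear out the labels, and at 2 months H (2.57 and 1.99 CPM) the counting intervals overlapped. KO and WT below therefore stand for the libraries so labelled. Per the study's methods H and L were the times of highest and lowest Egr-1 protein. H was ZT13, ZT9 and ZT5 at 2, 6 and 12 months, and L was ZT17, ZT21 and ZT21. Both older ages thus differed from 2 months in clock time at H and at L. From 2 to 12 months 6 of 8 clock genes tested also differed in that experiment, so age over 2 months and time of day cannot be told apart there. Totals were 13375377 to 16557378 counts per library in the time course and 13747706 to 21748956 in the genotype experiment.

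On GRCm38, *Cidea* lies on chromosome 18 (67343604 to 67367785), *Cideb* on chromosome 14 (55754050 to 55758458) and *Cidec* on chromosome 6 (113424634 to 113435760). *Plin2* lies on chromosome 4 (86648386 to 86670060), whereas *Plin3* (56277476 to 56292873), *Plin4* (56100591 to 56109803) and *Plin5* (56111601 to 56117596) are close together on chromosome 17. *G0s2* lies on chromosome 1 (193272161 to 193273217), *Pnpla2* on chromosome 7 (141455198 to 141460743) and *Abhd5* on chromosome 9 (122351608 to 122381524). Counts were made over all exons of each gene. Exons of *Cideb* overlap those of *Nop9*, exons of *Plin4* those of *Hdgfl2*, and exons of *Abhd5* those of a transcript with 3 counts in all, each on the other strand. Whether the counting used strand is not given in the sources used here, so reads of *Plin4* and *Hdgfl2* (1875 and 6201 summed counts in the genotype experiment) and of *Cideb* and *Nop9* (10819 and 4951) may not be fully separate.

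Per kilobase of exon, *G0s2* and *Plin2* were the most abundant of the 10 transcripts and *Cidea* and *Plin4* the least abundant in the time course. The median over the 18 libraries was 143 FPKM (CPM per kilobase of annotated exon) for *G0s2*, ranging from 62.8 to 293, and 78.6 FPKM for *Plin2*, with a range of 48.4 to 140. *Cideb* (25.1) and *Plin5* (23.3 FPKM) followed and were not in a fixed order, with *Cideb* above *Plin5* in 8 of 18 libraries. *Pnpla2* had a median of 14.9 FPKM, *Plin3* 7.75 and *Abhd5* 4.96 FPKM, and *Pnpla2* was above *Plin3* in 18 of 18 libraries. *Cidec*, *Plin4* and *Cidea* had medians of 1.91, 0.194 and 0.133 FPKM, and *Plin4* was above *Cidea* in 9 of 18 libraries. In the genotype experiment, normalized separately, *G0s2* (280 FPKM) and *Plin2* (174 FPKM) again led, and *Plin4* (1.12 FPKM) was last. There *Cidea* ranged from 0 to 115 FPKM and *Cidec* from 2.56 to 42.9 FPKM, so that each spanned the levels of *Plin3* and *Abhd5*, and *Plin3* was above *Cidec* in 6 of 12 libraries.

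**Figure D1:**
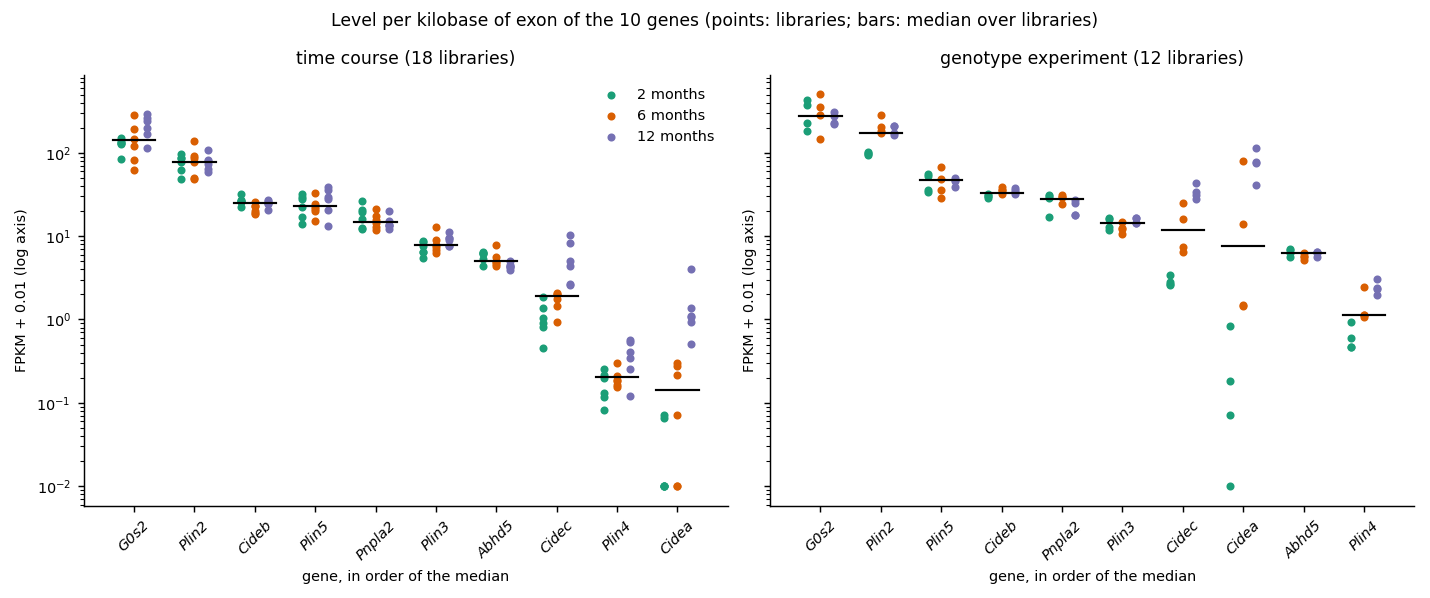
Level of the 10 genes in FPKM (0.01 added, log axis) in each library of the time course (left) and the genotype experiment (right), in order of the median over libraries, which the bars mark. Points are libraries coloured by age, and *Cidec*, *Cidea* and *Plin4* spread most between ages.

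Between 2 and 12 months in the time course, *Cidea*, *Cidec*, *Plin3* and *Plin4* rose and *Abhd5* fell. These were 4 of 10 genes higher, where 6.47% of all 13948 genes tested were higher, and 1 of 10 lower, where 5.19% were lower (edgeR's quasi-likelihood test, each ZT fitted as a block, at a Benjamini-Hochberg adjusted p under 0.05). *Cidea*, with at most 1 count per library at 2 months and 5 at 6 months, passed the count filter through its 12-month libraries alone. In time-course counts against 12 months it could therefore only come out higher at 12 months. The median log2 fold change of the 10 genes was 0.28, and that of all genes was 0.0016. In whole liver, more cells that use a gene cannot be told apart from more RNA per cell.

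*Cidea* had 1 count at ZT1 (0.0693 CPM), 1 at ZT5 (0.0622 CPM) and 0 at the other 4 times at 2 months, where the floor of 3 counts was 0.234 CPM in the shallowest of these libraries and the upper 95% exact Poisson limit of its 0 was 0.287 CPM. At 6 months it had 3, 0, 0, 5, 1 and 4 counts from ZT1 to ZT21, or 0 to 0.321 CPM. At 12 months it had 16, 19, 7, 27, 21 and 64 counts, or 1.02, 1.23, 0.552, 1.5, 1.19 and 4.50 CPM. Every 12-month library was thus above the highest library of the younger ages, and the ZT21 library at 12 months was above the other 5. From the summed counts (154 against 2), *Cidea* was 73.9-fold higher at 12 than at 2 months, with a 95% exact interval of 20.1 to 616 that covers counting error alone. Against 6 months (13 counts) the ratio was 10.6, with an interval of 6.04 to 20.4. In the fit the log2 fold change over 2 months was 5.67 (SE 0.63, adjusted p = 2.95e-05), a value that depends on the small count added to the nearly empty 2-month libraries.

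*Cidec* was at 0.832, 1.68, 2.54, 3.43, 1.89 and 1.48 CPM from ZT1 to ZT21 at 2 months. It was at 2.64, 1.73, 3.66, 3.85, 3.69 and 3.28 CPM at 6 months. At 12 months it reached 4.77, 4.91, 8.04, 15.5, 9.30 and 19.3 CPM, and no library at 12 months overlapped those of the younger ages. The log2 fold change of 12 over 2 months was 2.30 (SE 0.24, adjusted p = 1.36e-05), and that over 6 months was 1.63 (SE 0.23, adjusted p = 0.000225). Of all 13948 genes, 2.22% had each of the 6 libraries at 12 months above each of the 6 at 2 months, and of the 10 genes these were *Cidea* and *Cidec*. From 2 to 6 months such a separation was seen in 2.49% of genes and in 0 of the 10.

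*Plin4* lay at 0.412 to 1.40 CPM (median 0.890) at 2 months, 0.831 to 1.66 (median 1.02) at 6 months and 0.646 to 3.23 (median 2.12) at 12 months, so the ranges overlapped. It was higher at 12 than at 2 months at 6 of 6 times, with a log2 fold change of 1.2 (SE 0.32, adjusted p = 0.024). *Plin3* rose less, by a log2 fold change of 0.35 (SE 0.09, adjusted p = 0.0199), from 20.8 to 33.1 CPM at 2 months to 28.9 to 42.4 CPM at 12 months. *Abhd5*, the activator of the lipase, was the 1 gene of the 10 that fell, from 26.2 to 38.6 CPM to 23.4 to 29.9 CPM, with a log2 fold change of -0.39 (SE 0.12, adjusted p = 0.0444). The calls of *Plin3*, *Plin4* and *Abhd5* each lay near the threshold and were lost when some single times were left out. Over the alternative fits the log2 fold changes kept their sign, at 0.29 to 0.41 for *Plin3*, 1.10 to 1.33 for *Plin4* and -0.47 to -0.34 for *Abhd5*. *Plin3* missed it without ZT9 (adjusted p = 0.0939), ZT13 (0.08) or ZT21 (0.0721), and *Plin4* without any 1 of ZT9, ZT13, ZT17 and ZT21 (adjusted p of 0.0661 to 0.0796, edgeR). *Abhd5* missed it without any 1 of ZT1, ZT13, ZT17 and ZT21 (adjusted p of 0.0618 to 0.144, edgeR). With no block for ZT, *Plin3* (adjusted p = 0.202, edgeR) and *Abhd5* (0.0614) also missed it. *Cidec* passed in each of these fits, and *Cidea* in each without 1 time. *Cidea* was not tested with no block, where it fell under the count filter.

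*Plin2*, the main coat protein gene of the liver, had medians of 286, 287 and 270.5 CPM over the ages in turn and a log2 fold change of 12 over 2 months of 0.07 (SE 0.16). Its 6-month values were widest, from 172 CPM at ZT17 to 492 CPM at ZT5. *Plin5* (log2 fold change 0.21, SE 0.16) and *Cideb* (-0.09, SE 0.09) also did not pass the test. *G0s2*, the lipase inhibitor, had medians of 116, 117 and 191 CPM and was higher at 12 than at 2 months at 6 of 6 times, with a log2 fold change of 0.68 (SE 0.24) that missed the threshold (adjusted p = 0.0817). In the fit of the 12 libraries of these ages alone it passed, with an adjusted p of 0.00235. *Pnpla2*, the lipase, was lower at 5 of 6 times, with a log2 fold change of -0.24 (SE 0.09, adjusted p = 0.0833). The log2 ratio of *G0s2* to *Pnpla2* per kilobase ran from 2.06 to 3.44 (median 2.96) in the youngest mice, from 1.84 to 4.28 (median 2.995) at 6 months and from 3.10 to 4.26 (median 3.94) at 12 months, and these ranges overlapped.

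**Figure D2:**
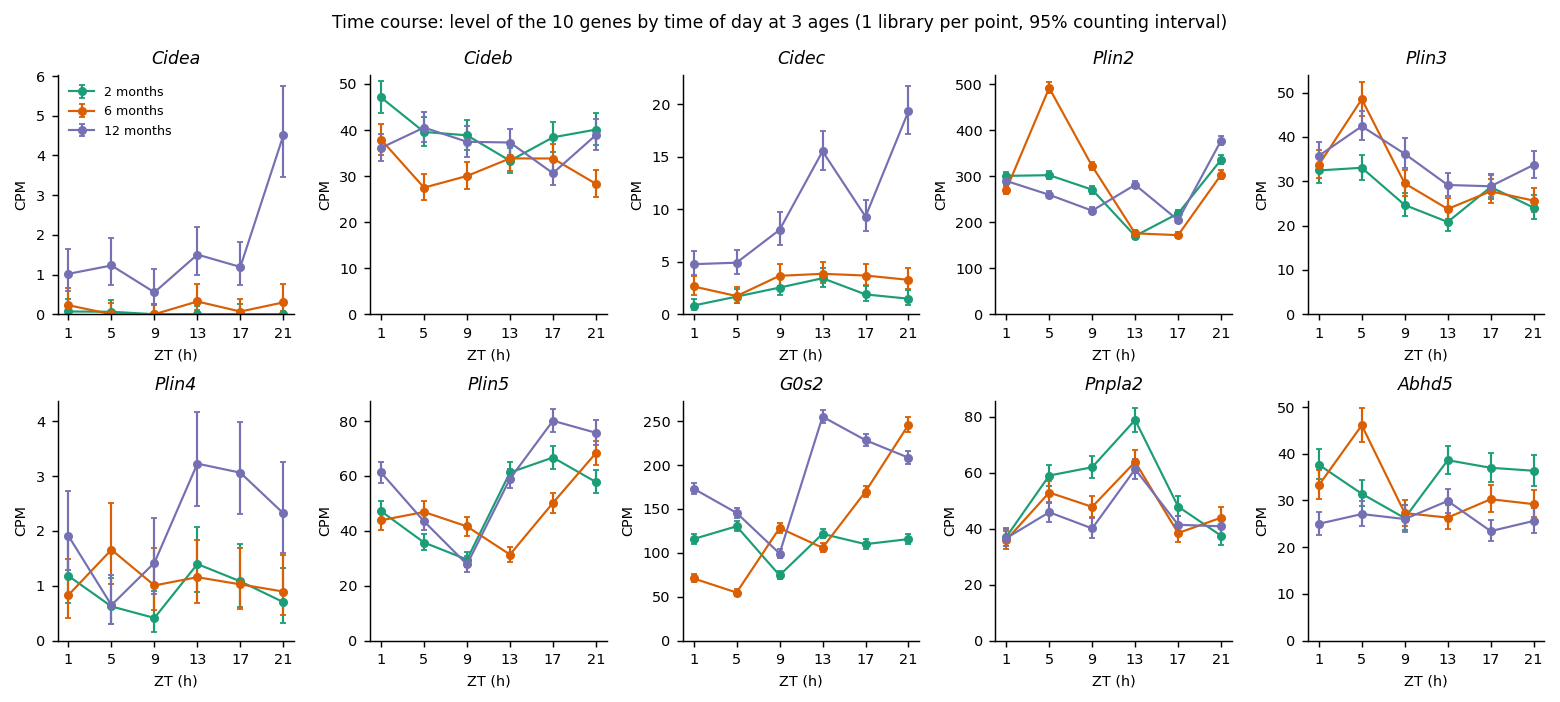
CPM of the 10 genes (vertical axes, from 0) against ZT in hours in the time course, with 1 library per point, 95% exact Poisson intervals and 1 line per age. *Cidea* and *Cidec* at 12 months lie above both younger ages at each time, and *Plin2* shows no such order.

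From 2 to 6 months 0 of the 10 genes rose (6.83% of all genes did) and *Cideb* alone of the 10 fell (6.73% of all genes did). *Cideb* was at 33.3 to 47.1 CPM (median 39.2) at 2 months and at 27.5 to 37.9 CPM (median 31.9) at 6 months, with a log2 fold change of -0.32 (SE 0.09, adjusted p = 0.0331). This call was lost without any 1 of ZT1, ZT5, ZT9 and ZT21 (adjusted p of 0.064 to 0.108, edgeR), and it was 0.0527 with no block for ZT. *Cidec* was higher at 6 of 6 times (log2 fold change 0.67, SE 0.25), with an adjusted p of 0.0932 in edgeR and 0.049 in DESeq2. *Cidea* had a log2 fold change of 2.33 (SE 0.89, adjusted p = 0.0966) on 13 counts against 2. All 6 acute-phase genes were higher in these 6-month libraries, and their part in the *Cideb* value was not tested. From 6 to 12 months *Cidea* and *Cidec* rose, or 2 of 10 where 8.57% of all genes rose, and 0 of 10 fell where 7.58% did. The fold of *Cidea* between these ages was 3.34 on the log2 scale (SE 0.48, adjusted p = 0.00027).

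The genotype experiment repeated the comparison of ages in other animals, with both genotypes in the fit and genotype and collection time as blocks. *Cidea*, *Cidec*, *Plin2* and *Plin4* rose from 2 to 12 months, 4 of 10 genes where 5.15% of 14389 genes tested rose, and 0 of 10 fell where 6.52% did. The same 4 genes rose from 2 to 6 months, where 1.37% of all genes rose, and 0 of 10 fell where 1.24% did. *Cidea*, at 0 to 0.922 CPM at 2 months, passed the count filter here through the older libraries, so it could only come out higher than at 2 months. *Plin2* thus rose here and not in the time course, a difference between the experiments that was not tested.

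*Cidea* in WT was at 0 counts at 2 months H and 1 count (0.0688 CPM) at 2 months L. It was at 1.63 CPM at H and 1.62 CPM at L at 6 months, and at 85.1 CPM at H and 46.1 CPM at L at 12 months. In the libraries labelled KO it was at 0.922 (H) and 0.192 CPM (L) at 2 months, 15.4 and 88.0 CPM at 6 months, and 128 and 86.9 CPM at 12 months. Over both genotypes the summed counts were 23 at 2 months and 6412 at 12 months, a ratio of 272 with a 95% exact counting interval of 181 to 430. At 12 months *Cidea* in the WT libraries of the genotype experiment thus lay at 46.1 and 85.1 CPM, against 0.552 to 4.50 CPM in the time course, in tables that were normalized separately.

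*Cidec* lay at 4.75 to 6.36 CPM in the 4 libraries at 2 months, 12.1 to 47.0 CPM at 6 months and 52.2 to 79.6 CPM at 12 months, with no overlap between the 3 ages. The log2 fold changes over 2 months were 2.14 (SE 0.28, adjusted p = 0.00687) at 6 months and 3.59 (SE 0.28, adjusted p = 0.000119) at 12 months. *Plin4* lay at 2.62 to 5.34, 6.14 to 14.2 and 11.4 to 17.4 CPM, so that only the upper ages overlapped, with log2 fold changes of 1.22 (SE 0.28, adjusted p = 0.0422) and 2.02 (SE 0.27, adjusted p = 0.00128). *Plin2* lay at 335 to 361 CPM at 2 months, 615 to 1002 at 6 months and 581 to 746 at 12 months, with log2 fold changes of 1.10 (SE 0.15, adjusted p = 0.00889) and 0.95 (SE 0.15, adjusted p = 0.00325). Of all 14843 genes passing the count filter of the pairs, 7.73% had the 4 libraries at 12 months above the 4 at 2 months, and of the 10 these were *Cidea*, *Cidec*, *Plin2* and *Plin4*. Leaving out the 2-month pair at H or at L left 0 of the 4 calls of 6 over 2 months, with adjusted p of 0.127 to 0.292 (edgeR). Without the pair at H 0 of all genes passed, against 375 in the main fit, so the loss was not particular to these genes. *Plin4* also missed the threshold at 6 months without the pair at 6 months L (adjusted p = 0.174, edgeR), 12 months H (0.0677) or 12 months L (0.0551). At 12 over 2 months, without the 2-month pair at H *Cidea* (adjusted p = 0.051, edgeR) and *Plin2* (0.105) missed it, and without the 12-month pair at H *Plin2* (0.0968) and *Plin4* (0.0552) missed it.

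The other 6 genes did not pass in this experiment at either age. *Cideb* had log2 fold changes over 2 months of 0.25 (SE 0.09) at 6 months and 0.23 (SE 0.09) at 12 months. *G0s2* had -0.21 (SE 0.34) at 12 months, and *Abhd5* -0.03 (SE 0.10), whereas in the time course the estimates were 0.68 and -0.39, and the difference between the experiments was not tested. *Plin3* (0.12, SE 0.14), *Plin5* (0.04, SE 0.25) and *Pnpla2* (-0.28, SE 0.20) also stayed above the threshold at 12 months.

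**Figure D3:**
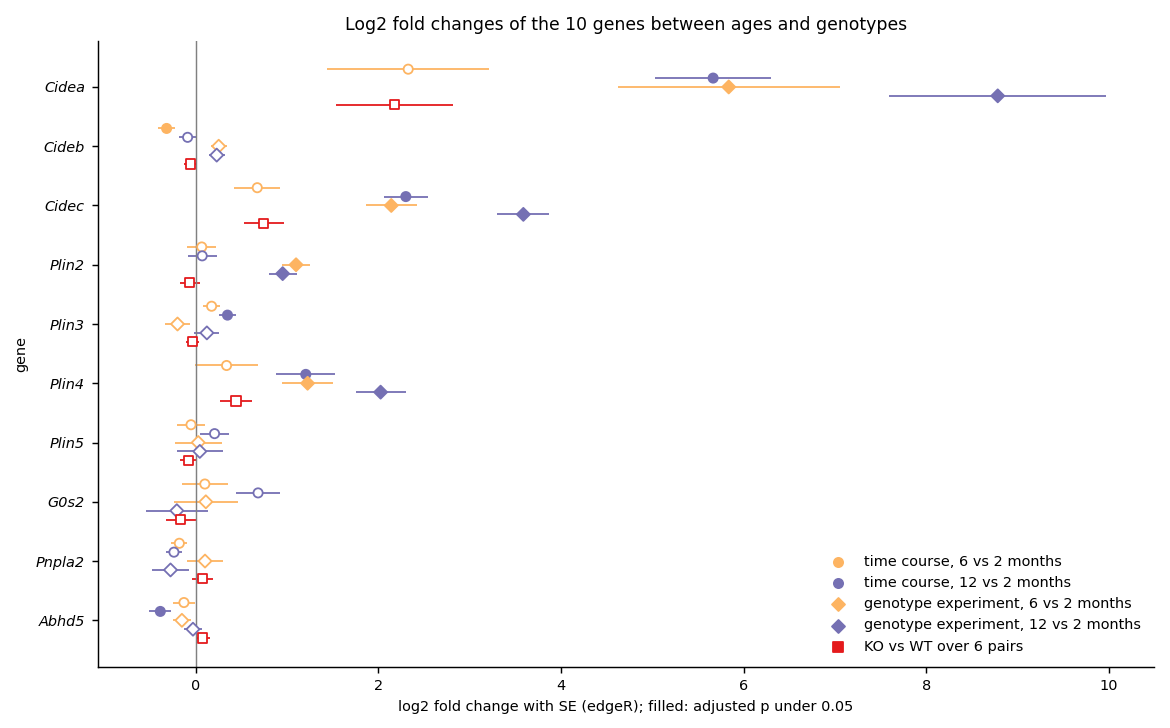
Log2 fold change with SE (horizontal axis, edgeR) of the 10 genes for 6 and 12 over 2 months in the time course (circles) and the genotype experiment (diamonds) and for KO over WT (squares). Filled marks have an adjusted p under 0.05, and the values of *Cidea* rest on 2 counts at 2 months in the time course and 23 in the genotype experiment.

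*Cidea* belongs to the marker genes of brown fat, so genes of adipocytes were read in the same libraries. *Ucp1* had 0 counts in all 30 libraries. At 12 months *Adipoq* was at most 0.0788 CPM and *Plin1* at most 0.0636 CPM in the time course, and at most 0.194 and 0.0665 CPM in the genotype experiment, and *Lep* had 1 count in these 10 libraries together. *Adipoq* was highest at 1.43 CPM, in a 6-month time-course library. The list of 8 adipocyte genes, summed without *Car3*, which liver also makes, came to 16.7 to 23.0 CPM at 2 months, 19.0 to 53.2 CPM at 6 months and 12.99 to 22.3 CPM at 12 months in the time course. In the genotype experiment the sums were 12.6 to 21.7, 19.9 to 35.9 and 18.7 to 35.2 CPM. Of the list, *Cfd* rose from 2 to 12 months in the time course, as 1 of 3 genes tested (log2 fold change 2.78, SE 0.69, adjusted p = 0.0157). *Cfd*, *Car3* and *Retn* rose in the genotype experiment, as 3 of 4 genes tested. Of all genes, 6.47% rose between these ages in the time course and 5.15% in the genotype experiment. The highest list sum without *Car3* in the genotype experiment, 35.9 CPM, was in the 6-month L library labelled KO, where *Cidea* was at 88.0 CPM. The highest in the time course, 53.2 CPM, was at 6 months ZT5, where *Cidea* had 0 counts. *Fabp4*, at up to 52.8 CPM at 6 months, made up nearly all of that sum, and the highest *Adipoq* was in another library. *Fabp4* had a log2 fold change of -0.36 (SE 0.22) from 2 to 12 months in the time course. It was called lower there from 6 to 12 months, where *Car3* was called higher, and *Car3* was called lower from 2 to 6 months. Fat-cell genes were thus near 0 for some of the list, and others went up or down with age. The 5 stellate-cell genes summed to 258 to 314 CPM at 2 months and 333 to 470 CPM at 12 months in the time course, with 2 called higher (*Reln* and *Dcn*). The 4 lymphocyte genes summed to 8.96 to 16.6 CPM and 37.8 to 282 CPM there, with *Ighm* called higher of 3 tested, and to 12.1 to 24.1 and 88.7 to 154 CPM in the genotype experiment, with 3 of 4 called higher. The part of these cells in the values above was not tested.

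The starts of *Cidec*, *Plin4* and *Plin2*, which rose with age in the genotype experiment, are shown here, as 300 bases from 250 before to 50 after a RefSeq start site on GRCm38. Windows were read for 9 of the 10 genes, 11 in all, and that of *Cidea* was not analysed here. They were searched on both strands for the E-box CACGTG that the clock factors bind, for the Egr motif GCGNGGGCG, for a DR1 element (AGGTCA repeated after 1 base, the site of PPAR receptors) and for a single AGGTCA. Capitals mark the matches.
*Cidec*, chr6:113435711-113436010, minus strand: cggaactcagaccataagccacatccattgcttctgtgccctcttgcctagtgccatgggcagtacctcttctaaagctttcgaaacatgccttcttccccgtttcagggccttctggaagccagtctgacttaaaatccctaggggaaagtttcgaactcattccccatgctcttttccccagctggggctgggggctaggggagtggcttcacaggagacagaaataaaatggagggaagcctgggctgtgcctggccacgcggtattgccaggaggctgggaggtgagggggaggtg
*Cidec*, second start, chr6:113434715-113435014, minus strand: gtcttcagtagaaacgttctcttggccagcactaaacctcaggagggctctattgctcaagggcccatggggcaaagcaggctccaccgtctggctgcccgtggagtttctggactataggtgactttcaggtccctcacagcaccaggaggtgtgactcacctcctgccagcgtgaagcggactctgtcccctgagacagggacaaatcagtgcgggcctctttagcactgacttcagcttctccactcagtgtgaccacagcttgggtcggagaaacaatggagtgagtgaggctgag
*Plin4*, chr17:56109733-56110032, minus strand: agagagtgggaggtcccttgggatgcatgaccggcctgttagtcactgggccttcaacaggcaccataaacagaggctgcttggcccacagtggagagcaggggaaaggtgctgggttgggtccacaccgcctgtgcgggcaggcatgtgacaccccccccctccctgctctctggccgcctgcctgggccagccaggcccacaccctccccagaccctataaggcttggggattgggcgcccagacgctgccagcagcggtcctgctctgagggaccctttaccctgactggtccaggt
*Plin2*, chr4:86670010-86670309, minus strand: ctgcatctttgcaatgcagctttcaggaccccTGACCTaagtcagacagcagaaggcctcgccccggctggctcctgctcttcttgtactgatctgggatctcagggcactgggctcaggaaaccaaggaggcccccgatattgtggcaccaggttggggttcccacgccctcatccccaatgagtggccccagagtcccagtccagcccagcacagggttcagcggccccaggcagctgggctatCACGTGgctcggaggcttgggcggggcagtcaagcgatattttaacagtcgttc
The *Plin2* window held the E-box, with its first base 4 bases before the start site, and 1 AGGTCA on the reverse strand that begins 218 bases before it. Of all 32851 windows of this length, 7.15% held the E-box, 5.55% the Egr motif, 0.0396% the DR1 element and 16.3% a single AGGTCA. The 2 windows of *Cidec* and that of *Plin4* held none of these letters. Single AGGTCA matches were also found in the windows of *Plin5* and *Abhd5*, and a match is a string of letters and not a measured site.

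At each age 1 gene of the 10 passed the edgeR test of a 24-h rhythm, and each call was lost when some single times were left out. Over all genes, leaving out 1 time also cut the calls, to as few as 245 of 673 at 2 months, 226 of 659 at 6 and 163 of 504 at 12 months. In an edgeR cosinor over the 18 libraries, 1 of 10 genes passed at 2 months (4.72% of 14268 genes tested did), 1 at 6 months (4.62%) and 1 at 12 months (3.53%). At 2 months this was *Pnpla2*, with 37.0, 58.9, 61.9, 78.8, 47.9 and 37.4 CPM from ZT1 to ZT21, an amplitude of 0.53 on the log2 scale, a fitted peak at ZT10.7 and an adjusted p of 0.0422. Without any 1 of ZT1, ZT13, ZT17 and ZT21 it missed the threshold (adjusted p of 0.0809 to 0.179, edgeR). It was lowest at the turn from night to day and highest at ZT13, the start of the dark phase. At 6 months it was *Plin2*, with 271, 492, 322, 176, 172 and 303 CPM, an amplitude of 0.65, a fitted peak at ZT3.98 and an adjusted p of 0.0489. Without ZT5, the time of its highest value, the adjusted p was 0.451, and it was also above the threshold without ZT9, ZT13 or ZT17 (0.0798 to 0.255, edgeR). At 12 months it was *Plin5*, with 61.2, 43.4, 27.8, 58.9, 80.1 and 75.7 CPM, an amplitude of 0.65, a fitted peak at ZT19.5 and an adjusted p of 0.028. Without any 1 of ZT5, ZT9, ZT17 and ZT21 it missed the threshold (adjusted p of 0.0587 to 0.202, edgeR). Its values at 2 months were 47.1, 35.7, 29.5, 61.2, 66.7 and 57.8 CPM, with a fitted peak at ZT18.1 and an adjusted p of 0.0573, and were likewise lowest at ZT9. *Plin5* did pass at 2 months by DESeq2 (adjusted p = 0.0102) and by edgeR without the filter on low counts (0.0269).

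A rank score of the JTK kind, with p taken from all 720 orders of the 6 values, can give no p below 0.0333, which 24 of the orders reach. At this smallest exact permutation p, *Cideb* (peak at ZT1) and *Cidec* (peak at ZT13) were called at 2 months, 2 of 10 genes where 8.27% of all genes reached it. At 6 months 0 of 10 genes reached it, where 7.85% of all genes did. *Plin3* (peak at ZT5) was called at 12 months, 1 of 10 where 6.14% did. These p-values are not adjusted for the number of genes. *Plin3* at 12 months was at 35.7, 42.4, 36.2, 29.2, 28.9 and 33.7 CPM, highest by day. The *Cidec* values fell into 1 wave at 2 months, given above, with the least at ZT1 and the most at ZT13. At 12 months *Cidec* had a fitted amplitude of 0.87 on the log2 scale and a fitted peak at ZT16.7 (adjusted p = 0.113 by the edgeR cosinor, 0.0419 by DESeq2, and 0.0224 and 0.0325 by edgeR without ZT17 and without ZT21), and *Cidea* an amplitude of 0.99 with a peak at ZT20.4 (adjusted p = 0.382). Both had their highest 12-month value at ZT21.

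Whether the rhythm itself changed with age was tested by the joint change of the cosine and sine terms (edgeR). For 6 against 2 months 0 of 10 genes passed, where 0.105% of all genes did, and without adjustment 1 of the 10, *Abhd5*, had p under 0.05. Without ZT9 *G0s2* passed (adjusted p = 0.0483). For 12 against 2 months 0 of 10 genes passed and 0% of all genes did, and without adjustment 1 of the 10, *Cidec*, had p under 0.05. DESeq2 called 0 of 10 in each.

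Between libraries labelled WT and KO, 0 of the 10 genes passed over the 6 pairs (edgeR with a block for each pair), where 0.64% of 14843 genes were higher and 0.721% lower in the libraries labelled KO. At an unadjusted p under 0.05 there were 3 of the 10, *Cidea*, *Cidec* and *Plin4*, each with a positive log2 fold change for the libraries labelled KO. DESeq2 called 1 of 10, *Cidea*, with an adjusted p of 0.0329, and edgeR without the filter on low counts called *Cidea* and *Cidec*. *Cidea* and *Cidec* were higher in the library labelled KO in 6 of 6 pairs, as were 4.92% of all genes tested.

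The excess of *Cidea* in the libraries labelled KO was uneven over the pairs. At 6 months it was 54.4-fold at L (1.62 against 88.0 CPM) and 9.43-fold at H (1.63 against 15.4 CPM), whereas at 12 months it was 1.89-fold at L and 1.51-fold at H. At 2 months the pair at H had 0 and 19 counts, and the pair at L had 1 and 3. The log2 fold change over the pairs was 2.18 (SE 0.64, adjusted p = 0.142), and the exact sign-flip permutation test over the 6 pairs gave p = 0.0313 unadjusted, the smallest it can give. *Cidec* was 3.89-fold and 2.19-fold higher at 6 months L and H, 1.08-fold and 1.52-fold at 12 months, and 1.11-fold and 1.30-fold at 2 months. Its log2 fold change was 0.75 (SE 0.22, adjusted p = 0.136). In the 4 pairs other than 2 months L and 12 months H, where *Egr1* was not lower in the library labelled KO, the log2 fold changes were 2.99 (adjusted p = 0.189) for *Cidea* and 0.90 (adjusted p = 0.278) for *Cidec*.

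*Plin4* was higher in the library labelled KO in 5 of 6 pairs (log2 fold change 0.44, SE 0.18, adjusted p = 0.27), most at 6 months L with 14.2 against 6.47 CPM. *Plin2* had a log2 fold change of -0.07 (SE 0.11), although it was higher in the library labelled KO in 5 of 6 pairs. The pair at 6 months L went the other way, with 1002 CPM in the library labelled WT and 615 CPM in that labelled KO. *G0s2* was lower in the library labelled KO in 5 of 6 pairs (-0.16, SE 0.17, adjusted p = 0.692), and at 6 months H it was 129 CPM in WT and 245 CPM in KO. *Cideb* (-0.06, SE 0.06), *Plin3* (-0.04, SE 0.07), *Plin5* (-0.08, SE 0.10), *Pnpla2* (0.08, SE 0.11) and *Abhd5* (0.08, SE 0.08) had differences within about 1 SE of 0. The 5 hepatocyte genes read as markers summed to 66384 to 82877 CPM in WT and 38343 to 50810 CPM in KO. *Alb* alone, at 26339 to 66783 CPM over both genotypes, made up most of these sums. *Alb* and *Apob* were called lower, 2 of 5, and the median log2 fold change of the 5 was -0.19. How many of all genes separate the genotypes in this way was not computed. *Ighm* was called higher in the libraries labelled KO, as 1 of 4 lymphocyte genes tested. *Sox9*, a bile duct gene, was called lower, as 1 of 4 of its list, whose median log2 fold change was 0.24. Of all genes tested, 0.64% were called higher and 0.721% lower. The part of these genes in the values above was not tested.

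**Figure D4:**
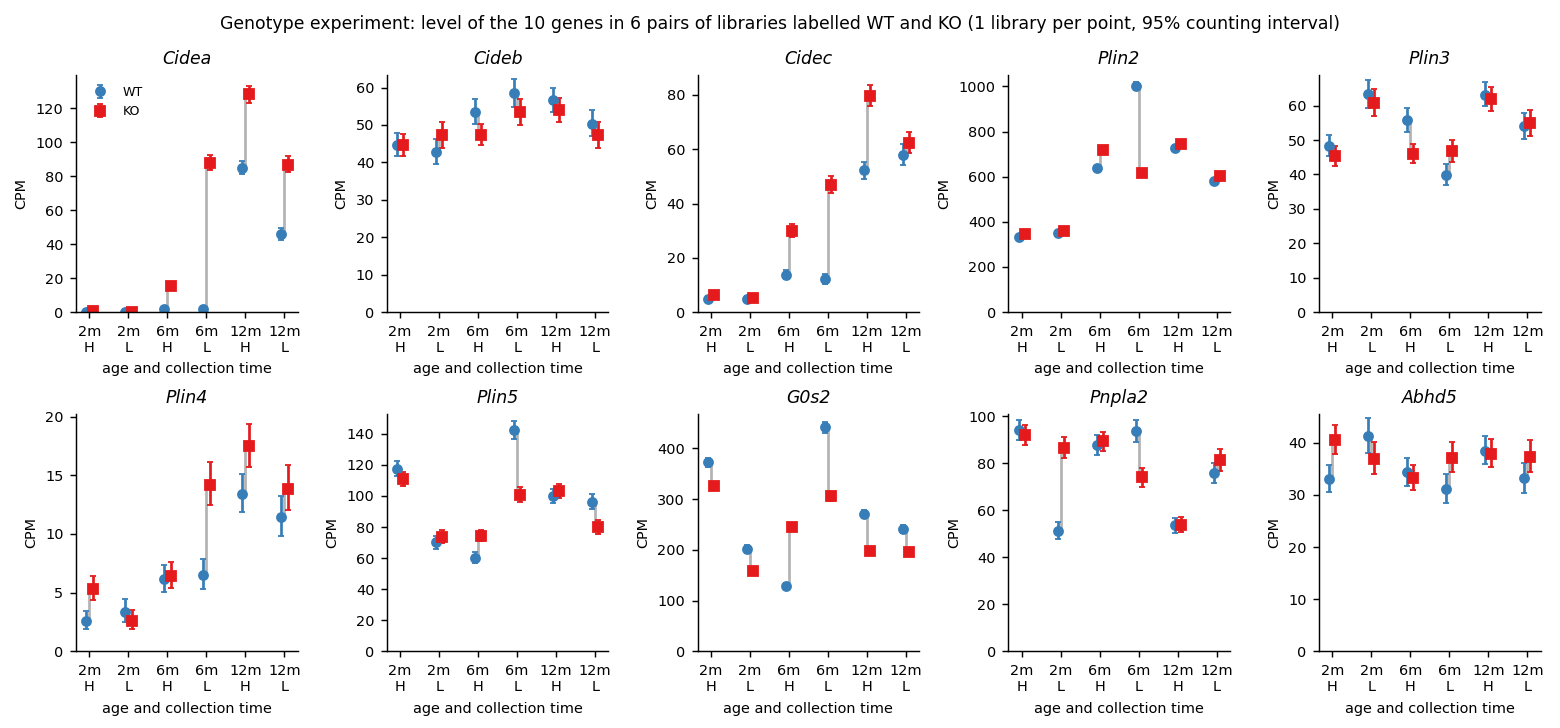
CPM of the 10 genes (vertical axes, from 0) in the 6 pairs of libraries labelled WT (circles) and KO (squares), by age in months (m) and collection time (H or L), with 95% exact Poisson intervals and a grey line joining each pair. *Cidea* and *Cidec* are higher in the library labelled KO in each pair, most at 6 months L.

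The effect of genotype was compared between ages and times by interaction terms (edgeR). For 6 against 2 months 0 of 10 genes passed, where 0.0135% of all genes did, and 1, *Cidec*, had an unadjusted p under 0.05, with a genotype effect larger at 6 months by 1.28 on the log2 scale (SE 0.33). Without the filter on low counts its adjusted p was 0.0111 (edgeR). For 12 against 2 months 0 of 10 passed and 0% of all genes did, and 0 of the 10 had an unadjusted p under 0.05. For H against L 0 of 10 passed, where 0.00674% of all genes did, and 0 had an unadjusted p under 0.05. DESeq2 called 0 of 10 in these 3 tests.

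Other genes of the droplet and of the PPAR response were read from 2 lists. For scale, the shares of all genes called higher and lower are given first. From 2 to 12 months they were 6.47% and 5.19% in the time course, and 5.15% and 6.52% in the genotype experiment. From 2 to 6 months they were 6.83% and 6.73%, and 1.37% and 1.24%, in the same order. Over the pairs they were 0.64% and 0.721%. Of 24 further droplet genes, 23 were tested (*Plin1* was too low), and 7 rose and 0 fell from 2 to 12 months in the time course, with a median log2 fold change of 0.11 (0.0016 over all genes). *Fitm1*, which helps droplets form at the endoplasmic reticulum, came first (log2 fold change 1.87, SE 0.13, adjusted p = 3.69e-07), before *Tm6sf2* (0.72, SE 0.09) and *Hsd17b13* (0.49, SE 0.09), a droplet enzyme of hepatocytes. In the genotype experiment 2 of 23 rose from 2 to 12 months, *Fitm1* (1.66, SE 0.17) and *Mogat1* (3.10, SE 0.35), an acyltransferase that makes diglyceride. There *Lipe*, the hormone-sensitive lipase (-0.49, SE 0.10), and *Aup1* (-0.36, SE 0.09) fell. From 2 to 6 months *Tm6sf2* and *Fitm1* rose and *Dgat2*, *Hsd17b11* and *Mgll* fell in the time course, and *Fitm1* and *Mogat1* rose in the genotype experiment. Over the pairs *Hsd17b13* was lower in the libraries labelled KO (-0.59, SE 0.09, adjusted p = 0.0154), as 1 of 23, and 0 were higher.

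Of 19 genes of the PPAR response, 6 rose and 2 fell from 2 to 12 months in the time course, where 6.47% and 5.19% of all genes did. The median log2 fold change was likewise 0.11. *Pparg*, whose product drives fat-cell genes, rose by 1.26 on the log2 scale (SE 0.16, adjusted p = 9.05e-05), *Cyp4a14*, a fatty acid hydroxylase, by 2.10 (SE 0.32) and the hormone *Fgf21* by 2.52 (SE 0.52), whereas *Lpl* (-0.61, SE 0.16) and *Creb3l3* (-0.45, SE 0.12) fell. In the genotype experiment *Cd36*, a fatty acid carrier (1.86, SE 0.27), *Vnn1* (1.46, SE 0.25) and *Pparg* (0.73, SE 0.18) rose and *Creb3l3* fell (-0.82, SE 0.10) from 2 to 12 months, 3 and 1 of 19. From 2 to 6 months 1 rose (*Pparg*) and 7 fell in the time course, *Cyp4a10* and *Lpl* among them, and 2 rose (*Vnn1* and *Cd36*) in the genotype experiment. In the libraries labelled KO 1 of 19 was lower, *Mlxipl* (-0.38, SE 0.06, adjusted p = 0.0225), and 0 were higher.

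Over the 12214 genes that averaged 1 CPM or more in each table, likeness to a member was read as the lower of 2 Pearson correlations of log2(CPM + 0.5), over the 18 and over the 12 libraries. For *Cidea* the leading genes were *Gm32468* (r = 0.90 and 0.93), *Fitm1* (0.89 and 0.97), *Gstt3* (0.87 and 0.89), *Cidec* (0.86 and 0.99) and *Cyp46a1* (0.84 and 0.90). For *Cidec* they were *Fitm1* (0.92 and 0.97), *Aldh3a2* (0.84 and 0.90), *Osbpl3* (0.83 and 0.96) and *Zfp982* (0.83 and 0.97), and *Plin4* came in place 46 (0.68 and 0.95). *Cidea* itself, with a mean under 1 CPM in the time course, was not ranked there. Median *Fitm1* was 23.5, 36.0 and 78.7 CPM at 2, 6 and 12 months in the time course and 82.9, 176 and 253 CPM in the genotype experiment, so that its order over the ages was that of *Cidec*. *Plin2* had other neighbours and lower values, led by *Ppp2r1b* (0.77 and 0.78), *Cbs* (0.77 and 0.81) and *Atf5* (0.77 and 0.83), then *Fbxo6* (0.76 and 0.78) and *Dpp9* (0.75 and 0.86). Its correlation with *Cidec* was -0.12 over the time course and 0.69 over the genotype experiment. The libraries share ages and normalization, and these values describe likeness of pattern only.

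**Figure D5:**
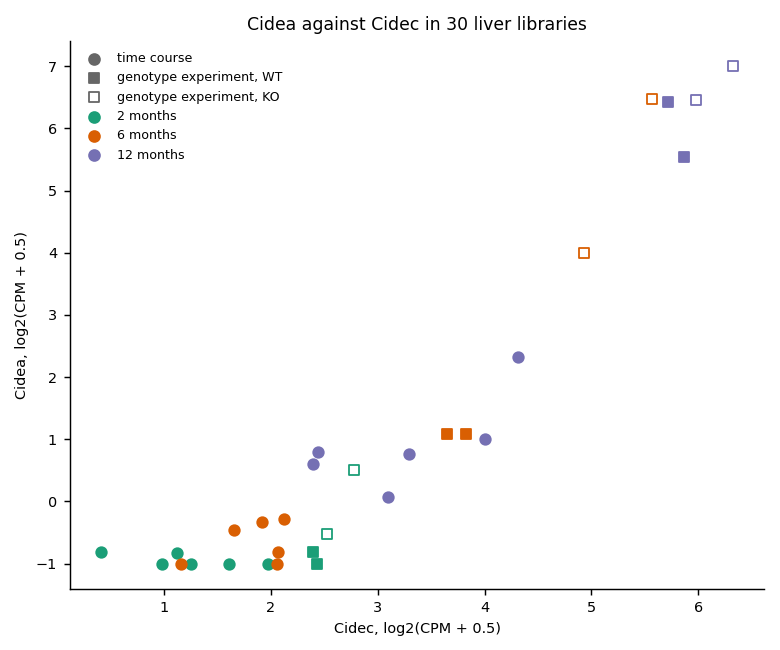
*Cidea* against *Cidec*, both as log2(CPM + 0.5), in the 18 time-course libraries (circles) and the 12 genotype libraries (squares, open for KO), coloured by age. Correlations were 0.86 and 0.99, and the libraries of different ages overlap in part. The 6-month L library labelled KO lies among the 12-month genotype libraries in *Cidea* (88.0 against 46.1 to 128 CPM). In *Cidec* it lies below them (47.0 against 52.2 to 79.6 CPM).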

How the data were processed

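The authors trimmed reads with fastp, aligned them with HISAT2 (mm10 per the labels) and deposited whole-number counts of reads per gene from featureCounts, without normalization. No upstream version is given in the sources used here. All columns of both tables were analysed. Genes were matched to GENCODE M21 (GRCm38). The members, gene lists and tests were chosen with earlier results of these data known.

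CPM used library totals times TMM factors (edgeR 4.0.16, R 4.3.3), and FPKM divided CPM by annotated exon length. Tests were edgeR quasi-likelihood fits on genes passing filterByExpr, with Benjamini-Hochberg adjustment over all of them and a threshold of 0.05. Standard errors are the log2 fold change over the square root of F. The exact sign-flip test was run in R on log2(CPM + 0.5), and rank scores used numpy 2.4.6 on CPM. Exact intervals used scipy 1.17.1 on counts. A count of 3 was the floor of detection. Poisson intervals are at 95% and cover counting error only, since reads without molecular identifiers are not independent molecules.

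Named genes are the 10 members, at most 3 per direction of each pathway list, the 5 genes most alike to *Cidea*, *Cidec* and *Plin2*, and *Egr1*. Some genes that this rule would name are not reported here. Marker genes were named after their values were seen. Alternatives were DESeq2 1.42.0, its size factors, no filter on low counts, other blocks, a minimum log2 fold change of 1.2, and leaving out each time or pair. The fits were tested on simulated data. Promoter windows come from RefSeq. Protein sequences were not used here.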

Additional observations from a re-analysis of the deposited data

Results flagged for a closer look

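Values of each of the 10 genes were compared within each age on log2(CPM + 0.5), in 60 groups of 4 or 6 libraries, with Dixon's 95% critical value for the gap of the most extreme library over the range. Chance flags about 1 in 20 groups, so 3 of 60 is no more than chance gives. *Plin4* in the 6-month L library labelled KO, with 14.2 CPM, stood above the other 3 libraries of that age (6.14 to 6.47 CPM). In the same library *Cidea* was at 88.0 CPM and *Cidec* at 47.0 CPM. *G0s2* at ZT9 in the 2-month group, with 74.3 CPM, stood below the other 5 (110 to 130 CPM). *Pnpla2* in the 2-month L library labelled WT, with 51.4 CPM, stood below the other 3 (86.7 to 94.2 CPM).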

How the results depend on the processing

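Counts of the 10 genes past the threshold were recomputed under 153 alternatives, and 109 of them stayed within 1.5 times the value given. Without the block for ZT (no replicate block), the counts for level were 0 (6 over 2 months), 2 (12 over 2 months) and 1 (12 over 6 months) against 1, 5 and 2 with it, and without the block for the pairs 0 genes were called in KO, as with it (*Cidea* log2 fold change 1.24 against 2.18). With a minimum log2 fold change of 1.2, 0 genes were called at 6 over 2 months and 3 at 12 over 2 months. Without the filter on low counts, 2 genes were called at 6 over 2 months, 4 at 12 over 6 months, 2 and 2 in the cosinor at 2 and 6 months, 2 in KO and 1 in genotype by age at 6 months. DESeq2 called 2 genes at 6 over 2 months, 2 in the cosinor at each age and 1 in KO. CPM without TMM factors gave 1 rank-score call at 2 months and 0 at 12 months. Leaving out 1 time gave 0 to 1 call at 6 over 2 months, 2 to 6 at 12 over 2 months, 2 to 3 at 12 over 6 months, 0 to 1 in the cosinor at each age and 0 to 1 for change of rhythm at 6 months (*G0s2*, without ZT9). Leaving out 1 pair gave 0 to 4 calls at 6 over 2 months and 2 to 4 at 12 over 2 months in the genotype experiment. Over all genes the calls at 6 over 2 months fell from 375 to 0 without the 2-month pair at H. In alternatives chosen after seeing the data, the 6 WT libraries alone called 0 and 2 genes at 6 and 12 over 2 months (*Cidea* and *Cidec* at 12 months), and the 6 KO libraries alone 0 and 1 (*Cidec*), with fewer libraries in the fit. Of all genes, the 6 KO libraries alone called 27 at 12 over 2 months, against 1679 in the main fit. The cause of the other changes was not tested. Over all genes, DESeq2 called 209 genes against 15 for change of rhythm at 6 months, 14 against 0 at 12 months, 430 against 202 in KO, 13 against 2 and 20 against 1 for genotype by age at 6 months and by collection time, and 804 against 375 at 6 over 2 months in the genotype experiment. A minimum log2 fold change of 1.2 left 320, 291 and 356 of 1892, 1626 and 2252 genes for level. Leaving out 1 time left as few as 245, 226 and 163 of 673, 659 and 504 genes in the cosinor, and the 3 pairs at H alone called 2 genes between genotypes.

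No value of a single gene turned its direction where it passed the threshold. At 12 over 2 and 12 over 6 months in the time course *Cidec* passed in each alternative fit, and *Cidea* in each that tested it. With no block for ZT *Cidea* fell under the count filter, so it is missing from the counts of that fit. Depth limited *Cidea* most, with 2 counts in the 6 libraries at 2 months. Each age, time and genotype had 1 library, so the spread between mice was not measured.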
